A study of Mus musculus with 42 samples.

Results

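Complexes II to V of the mitochondrial respiratory chain, together with cytochrome c, were followed in mouse liver through 43 genes. These were all the genes of the WT lean and ChemR23 KO lean table named Sdha, Sdhb, Sdhc, Sdhd, Cyc1 or Cycs, or beginning with Uqc, Cox4, Cox5, Cox6, Cox7, Cox8 or Atp5. That table lists 13031 genes, and all 6 tables together list 19732 names. Complex II gave 4 genes, complex III with cytochrome c 11, complex IV 11 and complex V 17. All 43 genes passed the filter on low counts (a mean normalized count of at least 5) in each of the 6 tables. The names gather 2 genes that are not subunits: Atp5s, a coupling factor, and Atp5sl, an assembly protein of complex I. Uqcc, an assembly factor of complex III, and Cox7a2l, a factor that joins complexes III and IV, were gathered by the same names.

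RNA of whole livers from 42 male C57BL/6J mice was sequenced, with 1 library per mouse and 7 mice in each of 6 groups. WT lean and KO lean mice ate a diet with 10% of its energy as fat, and WT obese and KO obese mice a lard-based diet with 60%, for 15 weeks from the age of 6 weeks. These 4 groups received vehicle, a mix of saline and ethanol, on 4 days, while WT obese+RvE1 and KO obese+RvE1 mice ate the 60% fat diet and received 300 ng of RvE1 on the same days. All mice were fasted and their livers taken on day 5. ChemR23, encoded by Cmklr1, is a receptor for the lipid mediator RvE1. The KO line, made with CRISPR/Cas9, lacks it in the whole animal rather than in 1 cell type, and the WT mice were littermates. Whether more than 1 founder was used is not given in the sources used here. In whole liver, fewer cells of a type and less RNA per cell cannot be told apart.

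The respiratory chain sits in the inner mitochondrial membrane. Complex II (succinate dehydrogenase) takes electrons from succinate and is also an enzyme of the TCA cycle, complex III passes them to cytochrome c, and complex IV hands them to oxygen. Complexes III and IV pump protons, and complex V (ATP synthase) lets them flow back through a rotating ring to make ATP. Liver uses this chain to burn fatty acids and to power glucose and urea synthesis. Several subunits of complex IV exist in a liver form and in a heart and muscle form, and the genes of these liver forms are among the 43. Other forms (Cox4i2, Cox6a2, Cox6b2, Cox7a1, Cox7b2 and Cox8b) were listed in 1 to 4 of the other tables but not in that of the lean mice, and so are not among the 43. The subunits of complexes III to V that mitochondrial DNA encodes were not analysed here.

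Promoter windows are shown for a pair of called genes in each of complexes II and V, since in each of these complexes members moved in opposite directions. Other called genes of complex V with a motif (Atp5l and Atp5e) and further NRF1 cores of Sdha and Sdhd are not shown. Each window holds 30 bases around a motif that lies before the start given in the RefSeq promoter table (GRCm38.p6), although other transcripts of Sdha, Atp5h and Atp5j start within or above the window, and is written 5′ to 3′ on the strand of the gene. Capitals mark a match to a core motif of a factor known to drive respiratory genes: NRF1 (TGCGCA), the ETS family with GABPA (CCGGAAG, which reads CTTCCGG on the other strand) or YY1 (AAGATGG).
Sdha, NRF1 core 56 bases before the start, chr13:74350279-74350308, minus strand: ggaggggcgtgtTGCGCAggcgcagaatct
Sdhd, NRF1 core 80 bases before the start, chr9:50603912-50603941, minus strand: gcttcgctggggTGCGCAcgcgcggtggca
Sdhd, ETS core 46 bases before the start, chr9:50603877-50603906, minus strand: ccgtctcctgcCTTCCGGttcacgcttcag
Atp5h, ETS core 38 bases before the start, chr11:115419939-115419968, minus strand: caaggagagaaCTTCCGGcaactctcttcc
Atp5j, ETS core 61 bases before the start, chr16:84835019-84835048, minus strand: agctgagggacCCGGAAGcacttaccctcc
Atp5j, YY1 core 88 bases before the start, chr16:84835046-84835075, minus strand: aaagtgtaggaAAGATGGcggagtcttagc
Sdha and Sdhd share the NRF1 core and Atp5h and Atp5j share the ETS core. The genes of each pair moved in opposite directions in the lean comparison given below, but the pairs were chosen for that. They therefore cannot show whether a motif goes with a direction. Atp5l, which also has the ETS core, rose as Atp5j did.

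RefSeq promoters (250 bases before to 50 after the start) were matched for 31 of the 43 genes, and motifs were searched on both strands. The NRF1 core stood in the promoters of 7 of the 31 genes (22.6%), against 8.79% of 27025 genes with a promoter. The ETS core was found in 12 (38.7%), against 9.93%, and the YY1 core in 3 (9.68%), against 7.28%. No motif of the 3 contains another. These matches describe letters and not bound sites. Of the 7 genes with the NRF1 core 4 were called in at least 1 of the comparisons below, as were 8 of the 12 with the ETS core and 1 of the 3 with the YY1 core. Of all 31 genes with a matched promoter 17 were called, and the sets with a motif are too small to tell their shares from that of the 31.

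The listed genes held 15960120 to 43755273 reads in each library, with a median of 25435851 in KO lean and 19755530 in WT lean mice. Cmklr1 lay between 9.718 and 22.6 normalized counts in KO lean mice and between 40.76 and 114.2 in WT lean mice, so the target gene went with the labels. In the obese mice it lay between 5.077 and 23.19 in KO and between 33.25 and 101.7 in WT. Hepatocyte markers (Alb, Apoa1, Ttr, Cps1, Asgr1 and Hnf4a) were all measured, and their sum was at least 877776 normalized counts in each lean mouse. Each table was normalized on its own, so groups were compared within a table.

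The 43 genes covered a wide range of levels in WT lean liver. Per kb of transcript, Atp5b, the catalytic subunit of complex V, was the highest, at 9240 ± 599 normalized counts per kb (SD, n = 7). Cox8a, the liver form of a small complex IV subunit, followed at 7482 ± 976, and Atp5a1, the partner of Atp5b, stood at 6242 ± 405. The ranges of Cox8a (6278 to 9382) and Atp5a1 (5714 to 6761) overlapped, and Atp5b (7958 to 9727) overlapped with Cox8a only. The median of the 43 genes was 1397 per kb. At the low end were Atp5g1 at 105 ± 15.0, Atp5k at 76 ± 16.4 and Atp5s at 67 ± 16.5. The rotating ring has 1 c subunit encoded by 3 genes, whose ranges of level per kb did not overlap, with Atp5g3 at 5233 ± 659, Atp5g2 at 270 ± 44.3 and Atp5g1 at 105 ± 15.0. The low place of Atp5g1 rests on its long transcript (4715 bases, 4367 of them in 1 exon, against 731 for Atp5g2), since before division by length it had 493.3 normalized counts and Atp5g2 197.4. Reads of genes with near-identical pseudogenes may be lost or shared in counting. Such copies (at least 90% identity) exist for 14 of the 43 genes, with up to 12 for Atp5l, 9 for Cycs and 5 for Atp5h. Among the c subunit genes, Atp5g1 has 4, Atp5g2 has 3 and Atp5g3 has 0, and what part this has in their levels was not tested. The median level was 895.5 per kb for these 14 genes and 2310 for the other 29. In the tables, 0 of these pseudogenes were listed.

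To find out what loss of ChemR23 did in the lean state, KO lean mice were compared with WT lean mice. Of the 43 genes, 16 (37.2%) rose and 2 (4.65%) fell with an adjusted p (BH) under 0.1 (limma, on log2(normalized count + 1)), with no fold threshold. Across all 13031 genes tested, 8.00% rose and 8.30% fell. These calls hold for mice taken as independent, and 0 of the 18 were called (smallest adjusted p = 0.139, limma) once the first number in the mouse names was fitted as a random effect, which applies to every rise and fall given for this comparison. The Log2FC was above 0 for 38 of the 43 genes, with a median of 0.22 against -0.0004 over all genes. Genes with the largest rise were Cox7a2 and Cox7b, small subunits of complex IV, with Log2FCs of 0.99 and 0.95. Sdha, which holds the active site of complex II, and Atp5h, of the stalk of complex V, were the 2 that fell. No gene of the 43 separated the groups completely, while 0.744% of all genes did.

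**Figure D1:**
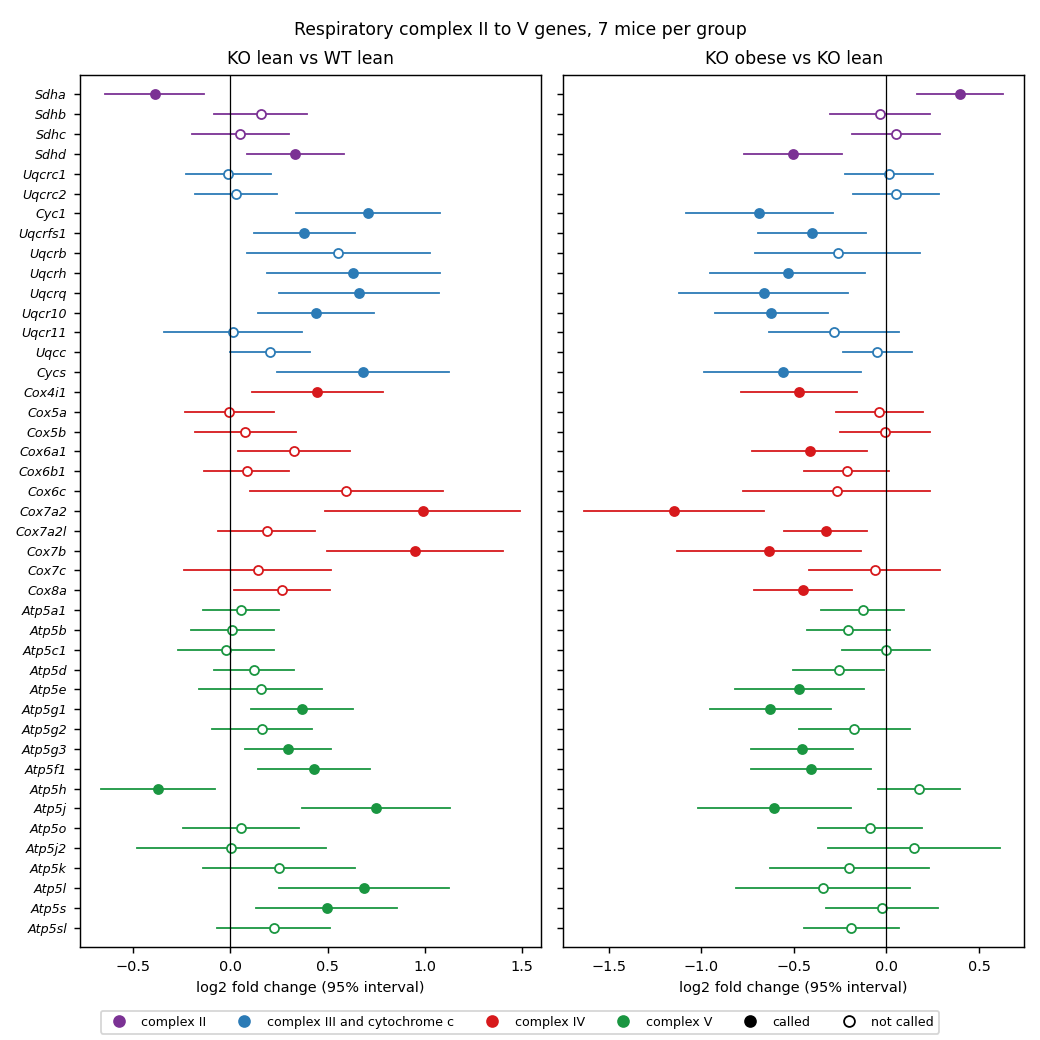
Log2 fold change (x axis) of each of the 43 genes with its 95% interval, for KO lean vs WT lean on the left and KO obese vs KO lean on the right, with 7 mice per group. Filled points have an adjusted p (BH) under 0.1 and colours give the complex. Most filled points lie right of 0 on the left (16 of 18) and left of 0 on the right (18 of 19), and Sdha lies on the other side in both panels.

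In complex II, 1 gene rose and 1 fell. Sdha, the flavoprotein that oxidises succinate (chr13:74322254-74350280), ran from 4144 to 6471 normalized counts in KO lean mice with a median of 5107, and from 5317 to 7772 in WT lean mice with a median of 6548. Of the 7 KO lean mice, 5 lay below the lowest WT lean mouse, and mice 20-2L and 20R lay within the WT range. The Log2FC was -0.39 (SE 0.12, BH-adjusted p = 0.0608, limma). Sdhd, a membrane anchor of the same complex, ran from 5062 to 8387 (median 7267) in KO lean and from 4914 to 6147 (median 5614) in WT lean mice. All KO lean mice except 20R lay above the highest WT lean mouse, and the Log2FC was 0.33 (SE 0.12, adjusted p = 0.0842). The iron-sulfur subunit Sdhb and the other anchor Sdhc did not pass the test, with Log2FCs of 0.16 and 0.05.

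Complex III with cytochrome c held the largest share of genes that rose, 6 of 11, with a median Log2FC of 0.44. Cyc1, cytochrome c1 (chr15:76343523-76346260), ran from 3997 to 10364 (median 7766) in KO lean and from 3504 to 5322 (median 4431) in WT lean mice. It was above the highest WT lean mouse in 6 of 7 KO lean mice, again with 20R as the low one. Its mean was 7106 ± 2052 in KO lean and 4229 ± 655 in WT lean mice (SD, n = 7 each), a Log2FC of 0.71 (SE 0.18, adjusted p = 0.0398, limma). Cycs, cytochrome c itself, rose by a Log2FC of 0.68 (adjusted p = 0.0587). The Rieske iron-sulfur protein Uqcrfs1 (0.38) and the small subunits Uqcrq (0.66), Uqcrh (0.63) and Uqcr10 (0.44) also rose. The large core proteins Uqcrc1 and Uqcrc2 had Log2FCs of -0.01 (95% interval -0.23 to 0.21) and 0.03 (-0.18 to 0.24), and neither passed the test. Uqcrb had a Log2FC of 0.56 but did not pass, at an adjusted p of 0.122 (limma).

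In complex IV, 3 of 11 genes rose, with a median Log2FC of 0.26. Cox7a2, the liver form of subunit 7a (chr9:79755361-79759878), read 2748, 4101, 6464, 3553, 2406, 6129 and 3623 normalized counts in the KO lean mice. In the WT lean mice it read 2864, 1428, 2440, 2878, 1544, 1786 and 1444. The 2 groups overlapped only through KO lean mice 14-2L and 20R, which lay below the highest WT lean mouse. The means were 4146 ± 1577 and 2055 ± 656 (SD, n = 7 each), a Log2FC of 0.99 (SE 0.24, adjusted p = 0.0358, limma). Cox7b, a small subunit encoded on the X chromosome (chrX:106015700-106022450), ran from 1428 to 3993 (median 2441) in KO lean and from 897.7 to 1799 (median 1130) in WT lean mice. It too was above the WT range in 5 of 7 KO lean mice, with a Log2FC of 0.95 (SE 0.21, adjusted p = 0.0348). Cox4i1, the common form of subunit 4, rose by 0.45 (adjusted p = 0.0863), where 1 KO lean mouse, 20L, read 7654 and the others 3705 to 5364. The matrix-side subunits Cox5a (-0.01) and Cox5b (0.08) did not pass the test. Neither did the liver forms Cox6a1 (0.33, adjusted p = 0.133) and Cox8a (0.26, adjusted p = 0.159).

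In complex V, 6 of 17 genes rose and 1 fell, with a median Log2FC of 0.16. Atp5j, subunit F6 of the stalk that holds the enzyme still (chr16:84827866-84835625), ran from 3328 to 7479 (median 6032) in KO lean and from 2407 to 4054 (median 3276) in WT lean mice. It was above the WT range in 6 of 7 KO lean mice, all but 20R, with a Log2FC of 0.75 (SE 0.18, adjusted p = 0.0361). Atp5l, subunit g in the membrane, rose by 0.69, subunit b (Atp5f1) by 0.43, and the c subunit genes Atp5g1 and Atp5g3 by 0.37 and 0.30. Atp5s, which is not a subunit, rose by 0.49. Atp5h, subunit d of the stalk, ran from 215.6 to 304 in KO lean and from 245.5 to 453 in WT lean mice, with 4 of 7 KO lean mice below the WT range. Its Log2FC was -0.37 (SE 0.14, adjusted p = 0.0987, limma), close to the threshold. Neither the catalytic head nor Atp5c1, the rotating shaft, passed the test. The Log2FC was 0.05 (95% interval -0.14 to 0.25) for Atp5a1, 0.01 (-0.20 to 0.22) for Atp5b and -0.02 (-0.27 to 0.22) for Atp5c1.

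The genes were also grouped by the size and place of the subunit. Of 13 genes for core subunits (those of complex II, Uqcrc1, Uqcrc2, Cyc1 and Uqcrfs1 of complex III and the head and shaft of complex V), 3 rose and 1 fell, with a median Log2FC of 0.05. Of 18 genes for small subunits of complexes III to V, 7 rose and none fell, with a median of 0.38. These counts describe the 43 genes, and the difference between the classes was not tested.

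**Figure D2:**
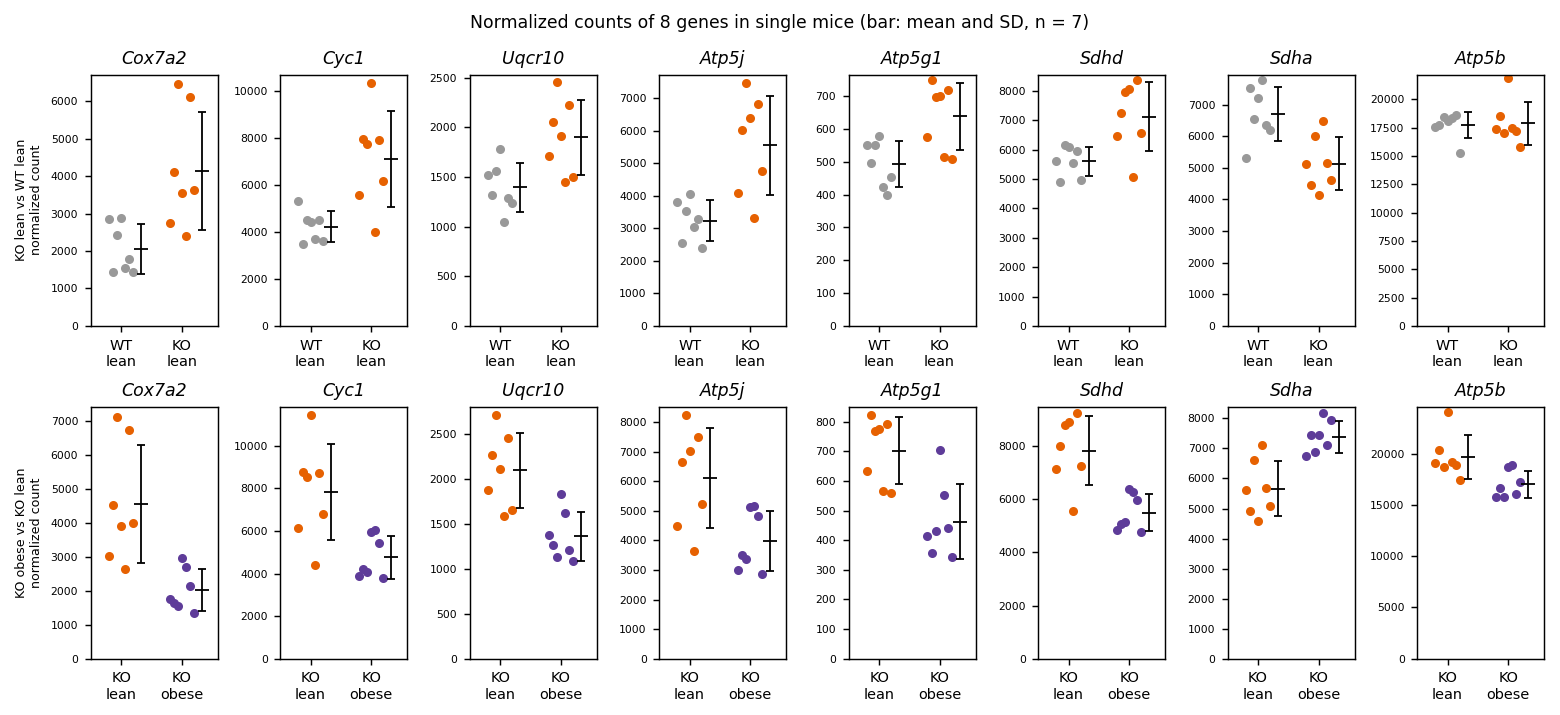
Normalized counts (y axis, from 0) of 8 genes in single mice, with KO lean vs WT lean above and KO obese vs KO lean below. Bars give the mean and SD of 7 mice. Cox7a2, Cyc1, Uqcr10, Atp5j, Atp5g1 and Sdhd lie higher on average in KO lean mice than in the other group of each row. Sdha lies lower. Atp5b was not called in either row and overlaps widely above, while below 5 of 7 KO obese mice lie under the KO lean range.

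The count of 18 genes was not stable against the choice of mice. Leaving out 1 mouse gave 4 genes without WT lean 21L, WT lean 26R or KO lean 9L, 5 without KO lean 14RL or 20-2L, 7 without KO lean 20L and 9 without WT lean 8R, but 14 to 21 without any of the other 7 mice. Cox7a2, Cox7b, Cyc1 and Atp5j kept their call whichever mouse was left out, while each of the other 14 called genes lost it in 5 to 11 of 14 cases. Each mouse carries an identifier that opens with a number, and up to 3 mice of a lean group share it. What the number stands for is not given in the sources used here. With this number as a random effect in limma, 3 of 13031 genes overall were called, and Cox7b had the smallest adjusted p of the 43. Leaving out all mice of 1 number, a check added after the data were seen, gave 0 called genes of the 43 without number 9 (2 KO lean mice), 21 or 26 (2 WT lean mice each), 7 without 14, 8 without 8 and 17 without 20. At an unadjusted p below 0.05, with all mice and no such effect, 22 of the 43 genes passed, against 3488 of all 13031, and edgeR and DESeq2 called 20 and 21. The rise was above 1.5-fold for 8 of the called genes, while 6.65% of all genes were called and moved more than 1.5-fold.

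In KO mice the obese state was then compared with the lean state. KO lean mice serve in this comparison too, now as the controls, so it shares 7 libraries with the lean comparison and the 2 are not independent. Of the 43 genes 18 (41.9%) fell and 1 (2.33%) rose with an adjusted p (BH) under 0.1, while over all 14213 genes 12.1% fell and 12.0% rose. With the identifier number as a random effect 4 of these 19 calls remained, and the share of all genes called with that effect is not given here. The Log2FC was below 0 for 37 of the 43 genes, with a median of -0.26 against -0.002 over all genes. Cox7a2 fell furthest, by 1.15 on the log2 scale, and Sdha was the gene that rose. Again no gene of the 43 separated the groups completely, against 2.10% of all genes.

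In complex II, Sdhd ran from 4780 to 6397 (median 5130) in KO obese and from 5556 to 9241 (median 8004) in KO lean mice, and 4 of 7 KO obese mice lay below the KO lean range. Its Log2FC was -0.50 (SE 0.13, adjusted p = 0.0177, limma). Sdha ran the other way, from 6738 to 8188 (median 7436) in KO obese and from 4570 to 7103 (median 5619) in KO lean mice. The 2 groups met only at KO lean mouse 20R, whose 7103 lay above the lowest 3 KO obese mice, and the Log2FC was 0.40 (SE 0.11, adjusted p = 0.0265). Sdhb and Sdhc had Log2FCs of -0.03 and 0.05 and did not pass.

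In complex III with cytochrome c, 6 of 11 genes fell, with a median Log2FC of -0.40. Uqcr10, a small subunit (chr11:4701973-4704342), ran from 1090 to 1835 (median 1265) in KO obese and from 1587 to 2711 (median 2108) in KO lean mice. In 5 of 7 KO obese mice it was below the KO lean range, while 23L and 31L lay within it, and the Log2FC was -0.62 (SE 0.14, adjusted p = 0.0136). Cyc1 fell with a Log2FC of -0.69 (SE 0.19, adjusted p = 0.0254), from a median of 8551 in KO lean to 4208 in KO obese mice. Uqcrq (-0.66), Cycs (-0.56), Uqcrh (-0.53) and Uqcrfs1 (-0.40) fell as well. The core proteins Uqcrc1 and Uqcrc2 did not pass, with 0.01 (95% interval -0.22 to 0.25) and 0.05 (-0.18 to 0.28).

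In complex IV, 6 of 11 genes fell, with a median Log2FC of -0.33. Cox7a2 read 1746, 1637, 1558, 2967, 2707, 2138 and 1344 normalized counts in the KO obese mice. In the KO lean mice, on the scale of this table, it read 3024, 4517, 7119, 3918, 2642, 6753 and 3993. Only 23L and 31L among the KO obese mice lay above the lowest KO lean mouse, 20R. The Log2FC was -1.15 (SE 0.23, 95% interval -1.63 to -0.66, adjusted p = 0.00645, limma). Cox7b (-0.63), Cox4i1 (-0.47), Cox8a (-0.45), Cox6a1 (-0.42) and Cox7a2l (-0.33) also fell. Cox6a1, Cox7a2 and Cox8a are the liver forms of their subunits. In KO lean mouse 20L, Cox4i1 (8441), Cox6a1 (6965) and Cox7a2l (3677) stood well above the other 6 KO lean mice. Without that mouse 14 of the 43 genes were called.

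In complex V, 5 of 17 genes fell, with a median Log2FC of -0.20. Atp5g1, 1 of the 3 c subunit genes (chr11:96068852-96075670), ran from 342.3 to 705.7 (median 429.6) in KO obese and from 558.7 to 824.2 (median 768.1) in KO lean mice. All KO obese mice except 23L lay below the KO lean range, and the Log2FC was -0.63 (SE 0.16, adjusted p = 0.0176). Atp5g1 has 4 near-identical pseudogenes. Atp5j (-0.61), Atp5e (-0.47), Atp5g3 (-0.46) and Atp5f1 (-0.41) fell too. Of the catalytic head, Atp5a1 (-0.13, 95% interval -0.35 to 0.09) and Atp5b (-0.21, -0.43 to 0.02) did not pass with limma. Atp5c1 (-0.00045), of the shaft, did not pass either. Atp5e, named above among the genes that fell, belongs to the shaft too. Atp5d, also of the shaft, had -0.26 (adjusted p = 0.135, limma), with 5 of 7 KO obese mice below the KO lean range. DESeq2 did call Atp5b, and 5 of 7 KO obese mice lay below the KO lean range for each of Atp5a1 and Atp5b. Atp5h, which fell in KO lean against WT lean mice, had a Log2FC of 0.17 (adjusted p = 0.266). Atp5h was called higher after the correction for length and GC given below (0.31, adjusted p = 0.0645, limma).

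The call count depended on single mice here too. Leaving out 1 mouse gave 10 genes without KO obese 31R, 11 without KO lean 9L, 12 without KO obese 10RL or 10R, and 14 to 21 in the other cases. Cox7a2, Uqcr10, Atp5g1, Sdhd, Cyc1, Sdha, Cox8a, Atp5g3, Cox4i1 and Cox7a2l kept their call in all 14 cases. The 4 calls that remained with the number as a random effect were Cox7a2, Uqcr10, Sdhd and Atp5g1, with an adjusted p of 0.0481 for Cox7a2. Leaving out all mice of 1 number gave 3 genes without number 10, 4 without 31, 7 without 9, 15 without 14 and 18 without 20. The fall was above 1.5-fold for 7 of the called genes, while 10.4% of all genes were called and moved more than 1.5-fold.

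Whether diet acted differently in the 2 genotypes was tested as the diet effect in KO minus that in WT mice, each formed within its own table. None of the 43 genes passed with an adjusted p (BH) under 0.1 with limma or edgeR, and 0.00710% of all genes did with limma. At an unadjusted p below 0.05, 15 of the 43 passed, against 18.2% of all genes. The difference was below 0 for 38 of the 43 genes, with a median of -0.37 against -0.01 over all genes. Cox7a2 had a difference of -1.18 (SE 0.35, 95% interval -1.90 to -0.46, adjusted p = 0.142), Cyc1 of -0.72 (-1.23 to -0.22, adjusted p = 0.148) and Sdha of 0.40 (0.08 to 0.72, adjusted p = 0.183). Leaving out KO lean mouse 20R gave 8 genes, leaving out WT obese mouse 22L gave 2, and leaving out any other mouse gave 0.

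In WT mice, where obese were compared with lean animals, none of the 43 was called by limma, edgeR or DESeq2, while 6.27% of all 14012 genes were by limma, and 2 of the 43 passed an unadjusted p below 0.05, against 2545 of all genes. The median Log2FC was 0.01. The 2 were Uqcc, the assembly factor (0.24, adjusted p = 0.200), and Atp5s (0.47, adjusted p = 0.229). Cox7a2 ran from 1242 to 4318 (median 1918) in WT obese and from 1377 to 2761 (median 1718) in WT lean mice, so that the groups overlapped almost wholly. Its Log2FC was 0.03 (95% interval -0.48 to 0.54). Sdha had a Log2FC of 0.002 (95% interval -0.25 to 0.25) and Sdhb one of 0.19. Atp5g1 was the lowest of the 43 at -0.26 (adjusted p = 0.490) and Cox5a stood at -0.11 (adjusted p = 0.635).

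Between the genotypes in the obese state none of the 43 genes was called by limma, edgeR or DESeq2, and 0.0141% of 14162 genes were by limma. None passed an unadjusted p below 0.05 either, while 319 of all genes did. The Log2FC of the 43 genes lay between -0.30 (Atp5e, of complex V) and 0.19 (Cox6c, of complex IV), with a median of -0.02. Cox7a2 ran from 1292 to 2847 (median 1700) in KO obese and from 1362 to 4750 (median 2113) in WT obese mice, a Log2FC of -0.19 (95% interval -0.69 to 0.31). Sdha had a Log2FC of 0.01 (-0.21 to 0.23). The groups overlapped for every gene named, among them Atp5sl (-0.19), Cox8a (-0.14), Uqcc (-0.09) and Sdhd (-0.07), all with an adjusted p of 0.9999.

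RvE1 did not give a called change in either genotype. In WT obese mice 0 of the 43 genes and 0% of all 13085 genes were called by limma, and 0 of the 43 were called by edgeR or DESeq2. At an unadjusted p below 0.05 there were 0 of the 43 and 795 of all genes. The median Log2FC was 0.06. Cox6c ran from 713.3 to 1031 (median 922.6) with RvE1 and from 404.4 to 1386 (median 723.5) without it, a Log2FC of 0.33 (95% interval -0.13 to 0.79, adjusted p = 0.917, limma). The treated mice lay inside the range of the untreated ones. Uqcrb had a Log2FC of 0.32, Atp5g2 of 0.18, Sdhd of -0.08, and Cox7a2l the lowest, -0.11.

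In KO obese mice 0 of the 43 genes and 0% of all 14207 genes were called by limma, and again 0 of the 43 by edgeR or DESeq2. At an unadjusted p below 0.05 there were 2 of the 43 and 1179 of all genes. The Log2FC was below 0 for 34 of the 43, with a median of -0.14. Uqcrb, a small subunit of complex III, ran from 247.8 to 830.8 (median 522.4) with RvE1 and from 593.1 to 1026 (median 740.3) without it. The groups overlapped, and the Log2FC was -0.59 (95% interval -1.08 to -0.10, adjusted p = 0.572, limma). Atp5o, the subunit that joins the stalk to the head of complex V, had a Log2FC of -0.43 (adjusted p = 0.557), Cox7c of -0.36 and Sdha of -0.26. Cox4i1 was the highest, at 0.11. Averaged over the 43 genes, mice 12-2L and 23RL lay lowest in the treated group, at -0.69 and -0.54 on the log2 scale relative to the mean of the table, and the other 5 between 0.04 and 0.29. Over all genes, the median deviation of short genes minus that of long genes was also lowest in these mice, at -0.39 and -0.38. It lay between 0.02 and 0.475 in the other 5, and what part gene length has here was not tested. A difference of the RvE1 effect between genotypes passed an adjusted p (BH) under 0.1 for 0 of the 43 genes with limma or edgeR, and for 0% of 13061 genes with limma. At an unadjusted p below 0.05, 2 of the 43 and 312 of all genes passed. The difference was -0.91 for Uqcrb (adjusted p = 0.9999).

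**Figure D3:**
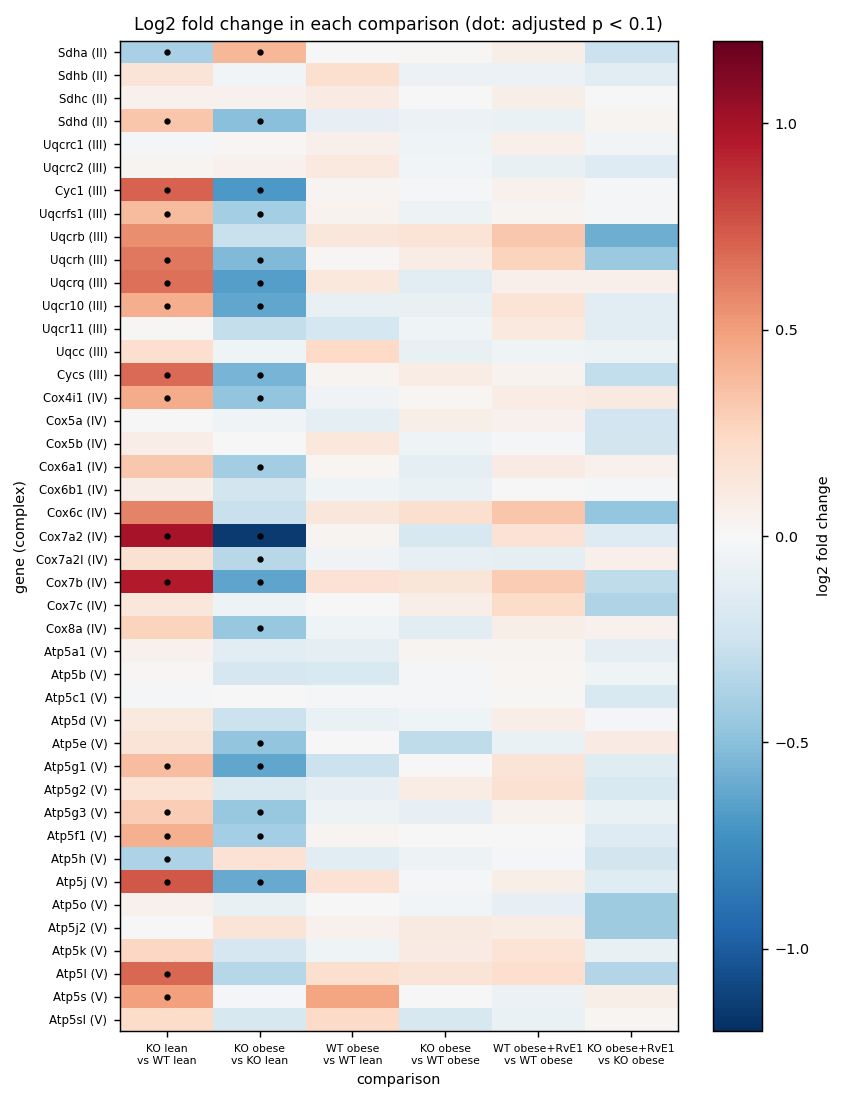
Log2 fold change (colour) of the 43 genes in the 6 comparisons, with 7 mice per group, and a dot where the adjusted p (BH) was under 0.1. Dots stand in the 2 columns that involve KO lean mice, 18 in KO lean vs WT lean and 19 in KO obese vs KO lean, and in no other column.

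Gene structure was set beside these changes. Across the 43 genes the Log2FC of KO lean vs WT lean ranked against the number of exons in the principal transcript with a Spearman rho of -0.48, and that of KO obese vs KO lean with 0.55. With transcript length rho was -0.14 and 0.21, and with GC content -0.12 and -0.14 (n = 43 genes each, which share libraries and are not independent). Of the 21 genes with 4 exons or fewer, 9 rose in KO lean mice with a median Log2FC of 0.33. Of the 22 with 5 or more, 7 rose and 2 fell with a median of 0.14. In KO obese against KO lean mice the medians were -0.40 and -0.11, and 12 and 6 genes fell.

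Gene length moved with both comparisons over all genes. When all genes were placed in 4 bins by summed exon length, the median Log2FC of KO lean vs WT lean was 0.14, 0.05, -0.03 and -0.15 from the shortest to the longest bin. For KO obese vs KO lean it was -0.15, -0.07, 0.03 and 0.16. Of the 43 genes 29 were in the shortest bin, 11 in the next, 3 in the third and none in the longest. Their median in the shortest bin was 0.25 for KO lean vs WT lean and -0.28 for KO obese vs KO lean, beyond that of the bin in both. In the next bin their median was 0.054 for KO lean vs WT lean, close to the 0.049 of the bin. For KO obese vs KO lean it was -0.19 there, against -0.07. In the third bin, with only 3 of the genes, it was 0.37 against -0.03 and -0.34 against 0.03. A loess correction for the length and GC content of genes was also made per library. Then 8 of the 43 genes rose and 2 fell in KO lean mice, all 10 of them among the 18, while 12.9% of all genes were called. The 10 were Cox7a2, Cox7b, Cyc1, Cycs, Uqcrq, Atp5j, Atp5l, Atp5g1, Sdha and Atp5h, and the median of the 43 was 0.06. In KO obese against KO lean mice 10 genes fell and 2 rose (Sdha and Atp5h), 11 of them among the 19, while 21.9% of all genes were called. With the correction, Cox7a2 had a Log2FC of 0.81 in the lean and -0.94 in the KO comparison, and Sdha of -0.37 and 0.39. What part gene length has in the rest was not tested.

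**Figure D4:**
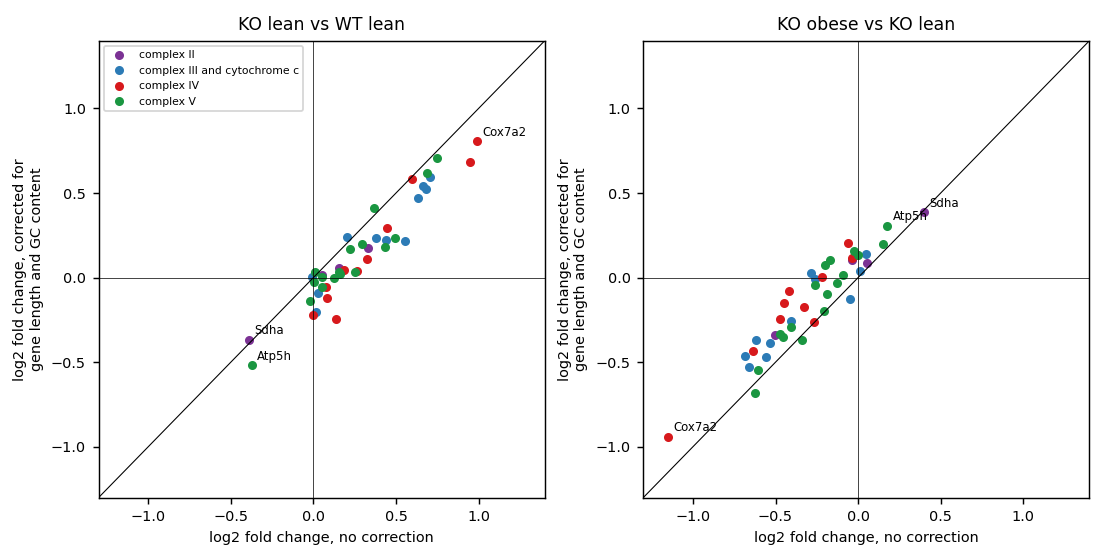
Log2 fold change of the 43 genes after correction for the length and GC content of genes (y axis) against the value without correction (x axis), for the 2 comparisons with KO lean mice, with the diagonal as a line. Points fall closer to 0 than without correction for 31 of 43 genes on the left and 29 on the right, while Sdha stays near the diagonal and Cox7a2 at the far end (0.81 on the left and -0.94 on the right).

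**Figure D5:**
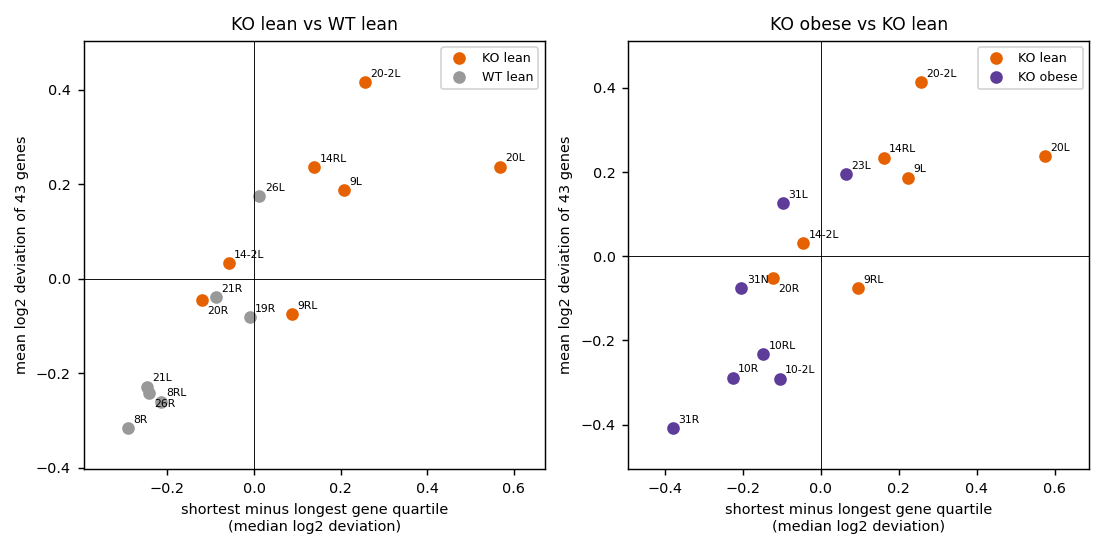
Mean log2 deviation of the 43 genes from the mean of the table (y axis) in each mouse, against the difference between the median deviations of the shortest and the longest bin of all genes (x axis), for the 2 comparisons with KO lean mice. Points are single mice with their identifiers. On the left, KO lean 9L, 14RL, 20L and 20-2L have the 4 highest values on both axes, and KO lean 9RL, 20R and 14-2L lie within the range of WT lean mice on the y axis.

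Averaged over the 43 genes, KO lean mice lay between -0.07 and 0.42 on the log2 scale relative to the mean of the table, and WT lean mice between -0.32 and 0.17, so the groups overlapped. The difference between the median deviations of short and long genes lay between -0.12 and 0.57 in KO lean and between -0.29 and 0.01 in WT lean mice, and the 4 KO lean mice with the highest average of the 43 genes also had its 4 highest values. In KO obese mice that difference lay between -0.38 and 0.06, and between -0.12 and 0.57 in KO lean mice of the same table. The 43 genes took 0.414% to 0.672% of the reads in KO lean mice and 0.462% to 0.572% in WT lean mice. When libraries were scaled to equal totals instead, the median Log2FC of all genes shifted to -0.12 in KO lean vs WT lean and to 0.14 in KO obese vs KO lean. Of the 43 genes, 5 then rose and 2 fell in the former and 2 rose and 7 fell in the latter. Over all genes this scaling turned 1042 rises and 1081 falls into 392 and 1753, and 1704 rises and 1718 falls into 2555 and 628. The median of the 43 genes was then 0.11 against -0.12 over all genes in the former and -0.12 against 0.14 in the latter.

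Markers of Kupffer cells, the resident macrophages of liver, moved with the same comparisons. All 6 that were measured (Clec4f, Vsig4, Cd5l, Timd4, Marco and Emr1, the older name of Adgre1) rose in KO lean mice, and their summed level was 5940 to 13150 in KO lean and 2413 to 5692 in WT lean mice. In KO obese against KO lean mice 5 of the 6 fell, with sums of 3645 to 4811 and 6546 to 14502. Of 6 hepatocyte markers 0 changed in either comparison. Among 3 stellate cell markers, 1 was called lower in each of the comparisons. Among 3 endothelial markers, 0 were called in KO lean vs WT lean and 1 was called lower in KO obese vs KO lean mice. Of 4 adipocyte and 6 skeletal muscle markers 0 were listed in the lean table. The part of other cells in the changes of the 43 genes was not tested.

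Other genes of mitochondria and of protein synthesis were counted in the same 2 comparisons. Beside their counts stand the shares of all genes, 8.00% up and 8.30% down in KO lean mice and 12.0% up and 12.1% down in KO obese against KO lean mice, and lists such as the TCA cycle enzymes lie near them. Of 35 nuclear subunits of complex I, which feeds electrons from NADH into the chain, 9 rose and 1 fell in KO lean mice (median Log2FC 0.13), with the smallest adjusted p for Ndufc2. In KO obese against KO lean mice 1 rose and 8 fell (median -0.19), led by Ndufb8. Of 32 assembly factors of complexes II to V, 7 rose and 1 fell in KO lean mice (median 0.17, led by Coa6), and 1 rose and 4 fell in KO obese mice (median -0.12, led by Tmem70). Of 76 mitochondrial ribosomal proteins 19 rose and 3 fell (median 0.15, led by Mrps33), and then 2 rose and 20 fell (median -0.14, led by Mrps23). TCA cycle enzymes had 2 of 17 up and 1 down in KO lean mice (median 0.17, led by Suclg1) and 1 up and 2 down in KO obese mice (median 0.02, led by Fh1). Of 18 regulators of mitochondrial biogenesis, 3 rose and 3 fell in each comparison, with medians of -0.15 and 0.11, led by Pprc1 and Esrra. Cytosolic ribosomal proteins had 10 of 80 up and 3 down in KO lean mice with a median of -0.05, led by Rps27a. In KO obese mice 1 was up and 30 down with a median of -0.26, led by Rpl13a. In WT obese against WT lean mice 1 assembly factor (Coa6) and 1 TCA cycle enzyme (Suclg2) rose, 4 cytosolic ribosomal proteins fell (led by Rpl28), and no gene of the other lists was called. None of the lists held a called gene in the other 3 comparisons.

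The 5 genes outside the 43 whose level followed their average most closely over the 14 lean mice were Snrpd2, a spliceosome protein (Pearson r = 0.98), Ndufb4, Ndufa4 and Ndufb11, subunits of the respiratory chain (r = 0.95, 0.94 and 0.93), and Bloc1s1 (r = 0.93). All 5 were called higher in KO lean mice, with Log2FCs between 0.49 and 0.76. These correlations describe the 14 libraries, which share depth and the shift by gene length.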

How the data were processed

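The authors aligned the reads of whole-liver libraries to mm10 with Bowtie2, which does not splice reads, counted fragments with featureCounts and normalized each pair of groups with DESeq2. The library kit was stranded. Versions, annotation and the strand setting in counting were not given in the sources used here. The deposited values are signal: counts divided by size factors, per table. The authors' fold changes and p-values, also deposited, were not used. Whole reads were recovered from 100% of values within 0.1 reads, and served edgeR and DESeq2. Depth limits low genes most.

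Genes with a mean of at least 5 were tested with limma 3.58.1 (R 4.3.3, trended, two-sided) on log2(value + 1), so that low genes' changes are understated. Named with values were, in each comparison, the gene of each complex with the smallest adjusted p, the highest and lowest Log2FC, isoforms and called genes, the top gene of each list and the 5 genes most like the average of the 43. Genes added after their values were seen (uncalled core and other subunits) show where no call was made. Members and lists were chosen with earlier results of these data known. Alternatives were edgeR 4.0.16, DESeq2 1.42.0, other scalings, pseudocounts of 0.5 and 4, no filter, a loess correction for length and GC (span 0.3), identifier number as a random effect, stricter thresholds and leaving out mice. The tests were tested on simulated data. Pseudogenes were found with BLAST 2.17.0, and sequences are from RefSeq. Labels name the RNA polyA in one place and total in another.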

Additional observations from a re-analysis of the deposited data

Results flagged for a closer look

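In groups of 7 mice, 1 mouse stood apart from the other 6 by more than Dixon's critical value allows for its gap in 5 of 128 groups examined, where chance gives about 1 in 20. KO lean mouse 20L had 7654 normalized counts of Cox4i1 in the table with WT lean mice, against 3705 to 5364 in the other KO lean mice. In the table with KO obese mice the same library read 8441 for Cox4i1 (others 4077 to 5907), 6965 for Cox6a1 (others 4082 to 5059) and 3677 for Cox7a2l (others 2331 to 2868). WT obese mouse 27RL read 1492 for Uqcrb in the table with RvE1-treated mice, against 384.8 to 858.2.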

How the results depend on the processing

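Of the 43 genes, 18 were called in KO lean vs WT lean mice and 19 in KO obese vs KO lean mice. The former count was 7 with equal totals, 10 with correction for length and GC, 0 with identifier number as a random effect, 4 at an adjusted p below 0.05 and 8 with a fold above 1.5. The latter count was 9, 12, 4, 12 and 7 under the same settings. Shares of all genes at an adjusted p below 0.05, and with the random effect in the latter, are not given here. Leaving out 1 mouse gave 4 to 21 and 10 to 21 genes, and 0 to 8 for the difference of the diet effect between genotypes. Leaving out all mice of 1 identifier number, chosen after seeing the data, gave 8, 0, 7, 0 and 0 genes in the former without numbers 8, 9, 14, 21 and 26. In the latter it gave 7, 3 and 4 without 9, 10 and 31. These fits have fewer mice, and the cause of the other shifts was not tested. TMM, the pseudocounts, no filter, edgeR and DESeq2 kept both counts within 1.5 times, and the other 4 comparisons stayed at 0.

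The sign turned for some uncalled genes. Between obese genotypes, Sdhd was 0.0168 without number 10 and Uqcc 0.00237 without 27. With RvE1 in WT mice, Atp5g2 was -0.0426 without number 30, and Cox7a2l 0.0133 and Sdhd 0.104 without 7. With RvE1 in KO mice, Cox4i1 was -0.0359 after correction for length and GC, -0.00903 without mouse 15-2L (up to 0.231 without another) and -0.0641 without number 15. No paired analysis was possible because the labels give no replicate numbers, and of the identifier numbers 1 alone, 23, is shared by groups compared (KO obese mouse 23L and KO obese+RvE1 mice 23-2L and 23RL). Depth was at least 15960120 reads per mouse, and 7 mice per group limit what could be called.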

Other observations

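Averaged over the 43 genes, WT obese+RvE1 mice fell into separate ranges by identifier number. The 4 mice of number 7 lay between -0.18 and -0.10 on the log2 scale relative to the mean of their table, and the 3 of number 30 between 0.26 and 0.28. Over all genes, the difference between the median deviations of short and long genes split these mice in the same way. It lay between -0.11 and -0.02 for number 7 and between 0.09 and 0.20 for number 30. What part gene length has in the split of the 43 genes was not tested. What the number stands for is not given in the sources used here. In KO obese+RvE1 mice, the 3 of number 12 ran from -0.69 to 0.28, the 2 of number 23 from -0.54 to 0.21 and the 2 of number 15 from 0.04 to 0.14.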
